A study of Mus musculus with 130 samples.

Results

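The liver response of C57BL/6J mice to an iron-loaded diet was measured by comparing 3 mice fed 2% carbonyl iron (animals KMC025, KMC028 and KMC032) with 3 mice fed a diet sufficient in iron, at 50 ppm (KMC010, KMC012 and KMC016). These 6 mice are part of a series of 130 male mice that asks how dietary iron overload and its pathology vary with genetic background, and they belong to its study of 5 diets in a single strain, with 3 mice per diet. All genes with enough reads in the diet table were included, which were 13560 of 35274. Both groups were male wild-type C57BL/6J, and the labels name no allele or agent besides the diet and give no age or time on the diet for these animals. Carbonyl iron is elemental iron in a fine powder, and 2% corresponds to 20000 ppm. Stranded mRNA libraries were made from RNA of the large lobe of the liver. The other diets of the study held 500 ppm iron, chow, or 2% iron with cellulose as fibre, and appear here only as levels beside the 2 groups. Animals are numbered 1 to 3 within a group in the order given above, and a number pairs no mice across groups.

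The liver stores most of the iron that the body holds in reserve and makes hepcidin, the hormone that limits iron export from gut cells and macrophages by removing the exporter ferroportin. Iron loading raises BMP6 in sinusoidal endothelial cells, which acts on hepatocytes through BMP receptors, hemojuvelin and SMAD proteins to switch on the hepcidin gene Hamp. Ferritin holds the iron within cells, and Kupffer cells, the macrophages of the liver, recycle iron from aged red cells. Hepatocytes also carry sex-dependent programs under growth hormone, as well as lipid, bile acid and drug metabolism.

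The 6 libraries held 10420708 to 11879846 counts. Levels are given as CPM, counts scaled to 1000000 per library with TMM factors. Differences are log2 fold changes (2% iron minus 50 ppm), and a gene was called when its Benjamini-Hochberg adjusted p from the quasi-likelihood test of edgeR was below 0.05. The tissue label was checked by 22 hepatocyte genes, all of which were tested, with a summed level of 109604 to 115402 CPM on 2% iron and 97824 to 106416 CPM on 50 ppm. Of these 22, 5 (22.7%) were called, all lower, against 15.7% of all genes tested called in either direction. For the hepatocyte list, the 5 calls became 0 higher and 2 lower without 2% mouse 3 or 50 ppm mouse 1, 0 higher and 3 lower with limma on either TPM scale, 1 higher and 4 lower without 2% mouse 2 or with the 6 mice alone, 1 higher and 6 lower with DESeq2, and 2 higher and 7 lower without the second 500 ppm mouse. Of 14 exocrine pancreas genes, 8 were at 0 in all 6 mice and their summed level stayed between 5.07 and 10.37 CPM. Some of the composition of the libraries moved with the diet. Alb took 7.34% to 7.90% of counts on 2% iron and 4.90% to 6.16% on 50 ppm, mitochondrially encoded genes took 8.17% to 10.3% and 7.41% to 7.64%, and the major urinary protein genes 0.263% to 0.448% and 2.32% to 5.35%. In RNA from whole tissue, a change in the number of cells of a type and a change in RNA per cell cannot be told apart.

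Of the 13560 genes tested, 2127 (15.7%) were called. Of these, 1155 (8.52% of those tested) were higher and 972 (7.17%) were lower on 2% iron. The median log2 change was 1.02 among genes called higher and -0.58 among those called lower, against 0.01 over all genes tested. A rise of more than 4-fold was called for 110 genes and a fall of that size for 74. In 869 of the called genes, 485 higher and 384 lower, the call held whichever of the 6 mice was left out. The first 50 ppm mouse bore most on the count, which was 1003 without it. Without 2% mouse 3 or 2% mouse 1 the counts were 1267 and 1370. With limma on log2(TPM + 1) the count was 1208 and the split moved to 804 higher and 404 lower. The plot of all genes sets 4 groups of genes against this background.

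**Figure D1:**
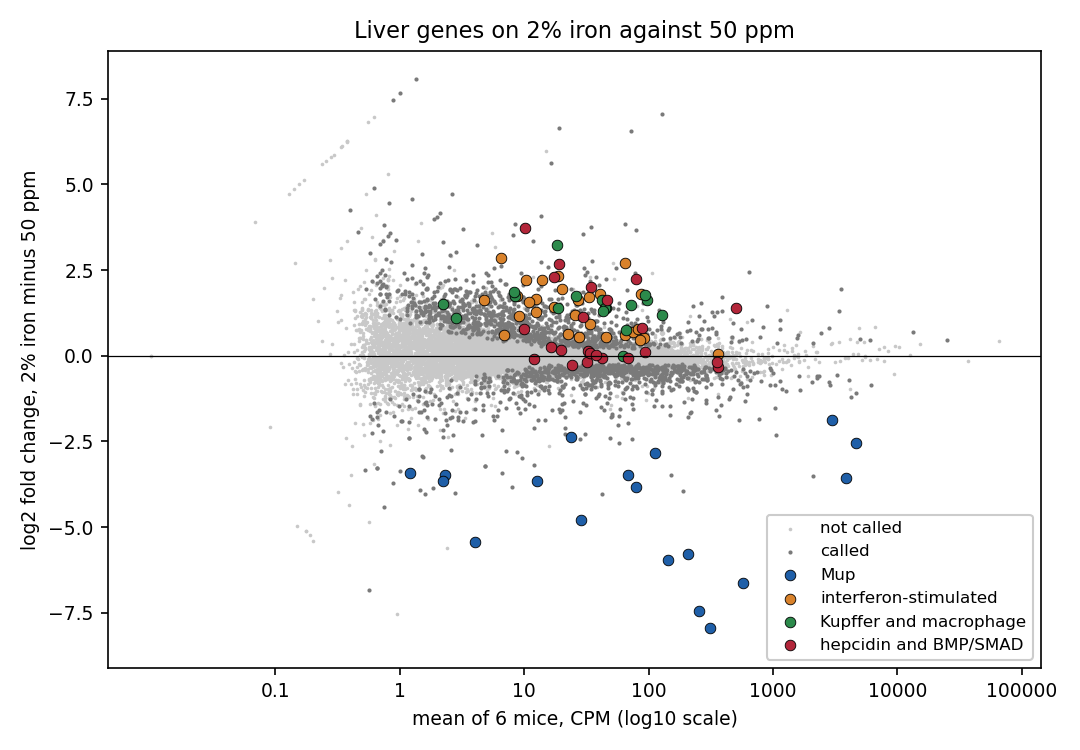
Each point is a gene, with its mean level over the 6 mice on a log10 axis (CPM) and its log2 fold change, 2% iron minus 50 ppm, on the other. Dark grey points were called, and coloured points belong to 4 gene lists: the Mup genes lie at or below -1.87, while the interferon-stimulated and the Kupffer cell genes lie almost all above 0.

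The genes with the largest changes came from a few families and from single genes of varied function. Zbtb8b, a zinc finger gene, had no count in any 50 ppm mouse and 26, 19 and 26 counts on 2% iron. The mean of the 2% mice, 2.02 CPM, was 6.95 times the level of the 50 ppm mice when these are set at a floor of 3 counts per library. Ffar4, a receptor for long-chain fatty acids, was at 9.198, 2.4002 and 3.58 CPM on 2% iron and 0.0969, 0.29 and 0.166 CPM on 50 ppm (log2 change 4.72, SE 0.9999, adjusted p 0.00892), and its change was 3.95 without 2% mouse 1. Its 50 ppm levels lay at or below that floor (0.249 to 0.291 CPM), so the size of its rise is uncertain. Ly6a, a cell surface marker that interferon induces, rose from 3.73 to 5.72 CPM to 29.9 to 34.3 CPM (log2 change 2.76, SE 0.31, adjusted p 1.94e-04). Tent5a, a poly(A) polymerase, rose with a narrow spread, at 39.2, 44.98 and 48.6 CPM on 2% iron and 22.1, 18.5 and 20.6 CPM on 50 ppm (log2 change 1.12, SE 0.11, adjusted p 1.26e-04). Slc22a27, an organic anion transporter gene, reached 23.1 to 28.3 CPM from 0.582 to 2.42 CPM (log2 change 4.08). Slc22a27 was not called without 50 ppm mouse 1 (adjusted p up to 0.0506), and DESeq2 gave no adjusted p for it.

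Falls of single genes were led by transcripts of low to moderate level. Pitx3, a homeobox gene, fell by 4.02 on the log2 scale, from 3.87 to 6.88 CPM on 50 ppm to 0.249 to 0.427 CPM. Hectd2, an E3 ubiquitin ligase gene, was at 6.46, 10.05 and 9.81 CPM on 2% iron and 54.7, 46.4 and 40.4 CPM on 50 ppm (log2 change -2.43, SE 0.25, adjusted p 1.26e-04). Ddah1, which breaks down the nitric oxide synthase inhibitor dimethylarginine, was at 19.6, 35.9 and 27.6 CPM on 2% iron and 114, 89.9 and 119.8 CPM on 50 ppm (log2 change -1.96, SE 0.201, adjusted p 1.26e-04). Ttc39c was at 80.9, 102 and 93.6 CPM on 2% iron and 398, 301 and 262 CPM on 50 ppm (log2 change -1.797, SE 0.17, adjusted p 8.49e-05). For each of the 4, the lowest 50 ppm mouse lay above the highest 2% mouse, and each call held without any 1 of the 6 mice.

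The hepcidin pathway rose at its ligand and at several targets, and no receptor or signal carrier was called. Of 23 genes of this list, all tested, 8 were called higher and 1 lower (39.1%, against 15.7% of all genes tested). The median log2 change was 0.16. Id4 (ENSMUSG00000021379, chromosome 13 at 48261228 to 48266026 of GRCm38), an inhibitor of basic helix-loop-helix factors and a BMP target, changed most, at 14.8, 22.1 and 19.5 CPM on 2% iron and 1.84, 0.967 and 1.41 CPM on 50 ppm (log2 change 3.73, SE 0.42, adjusted p 2.25e-04). Atoh8, a transcription factor that BMP signals induce, was at 62.7, 75.3 and 71.1 CPM on 2% iron and 21.03, 24.2 and 23.04 CPM on 50 ppm (log2 change 1.61, SE 0.15, adjusted p 8.49e-05), so its lowest 2% mouse lay far above its highest 50 ppm mouse. Bmp6, the ligand, was at 25.03, 30.1 and 31.4 CPM on 2% iron and 4.07, 7.64 and 5.72 CPM on 50 ppm (log2 change 2.31, SE 0.24, adjusted p 1.27e-04). Hamp (ENSMUSG00000050440, chromosome 7 at 30942368 to 30944032) was at 686, 771 and 727 CPM on 2% iron and 203, 384 and 240.4 CPM on 50 ppm (log2 change 1.3999, SE 0.303, adjusted p 0.00761), and in both genes the groups lay apart. Smad6, an inhibitory SMAD, rose by 0.795 (adjusted p 0.00884) from 6.63 to 8.24 CPM to 11.3 to 14.6 CPM.

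Among the other targets Id1 and Smad7 rose by 2.67 and 1.997, while Id2 and Id3 were at log2 changes of 0.82 and 1.14 and were not called (adjusted p 0.124 and 0.117). The receptor genes Bmpr1a, Acvr1, Bmpr2 and Acvr2a lay between -0.09 and 0.07, the coreceptor hemojuvelin at 0.12, Hfe at 0.15, Tfr2 at -0.18 and neogenin (Neo1) at -0.26. The carriers Smad1, Smad5 and Smad4 were at 0.24, -0.17 and 0.01, and Bmp2 at 0.16. None of these 12 genes was called. The inhibitor Tmprss6, a protease that cleaves hemojuvelin, was at 308, 350.3 and 303 CPM on 2% iron and 439, 371 and 398 CPM on 50 ppm. Its fall was 0.33 on the log2 scale (adjusted p 0.0249). Hamp2, at 97.5, 146 and 152 against 17.5, 34.9 and 30.3 CPM, can share reads with its near-identical neighbour Hamp. Id1 was not called without 50 ppm mouse 1 or 3 (adjusted p up to 0.0598). Tmprss6 was not called without 2% mouse 1 or 3 or 50 ppm mouse 1 or 3, or with no filter on low counts, the 6 mice alone or limma on either TPM scale (adjusted p up to 0.14). Hamp2 was not called without 2% mouse 2 or 3 or 50 ppm mouse 1, 2 or 3 (adjusted p up to 0.109).

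The promoter of Hamp holds the letters of 2 known response elements within a short stretch, which is shown because Hamp is the output of the pathway. Windows of 250 bases before to 50 after the start of each gene were read from RefSeq (GRCm38.p6) and searched on both strands for GGCGCC, the core of a BMP response element, and TTCNNNGAA, a STAT site. The match starts are 109 and 97 bases before the RefSeq start of Hamp, on the minus strand at chr7:30944098-30944158. A GGCGCC lies 148 bases before the RefSeq start of Id4 on the plus strand at chr13:48260948-48260993. The window of Id4 ends at 48261165, before the gene coordinates given above begin, so the 2 sources place its start differently. Capitals mark the matches.
Hamp: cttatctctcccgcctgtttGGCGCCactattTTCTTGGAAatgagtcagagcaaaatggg
Id4: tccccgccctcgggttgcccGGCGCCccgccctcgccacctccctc
Over the 10183 tested genes with a window, 20.5% held GGCGCC and 7.23% held TTCNNNGAA. Among genes called higher the shares were 16.5% and 7.80%, and among genes called lower 17.3% and 5.91%. Of 17 windows of the hepcidin list, 7 held GGCGCC, and the windows of Atoh8, Bmp6 and Smad6 did not.

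Among genes of iron storage and transport, ferroportin, the ferritin light chain, plasma carriers and lipocalin 2 rose. Of 24 genes of the list 22 were tested, with a median of 0.09. Of these, 7 were called higher and 3 lower (45.5%, against 15.7% of all genes tested). Slc40a1 (ENSMUSG00000025993, chromosome 1 at 45908068 to 45926523), which encodes ferroportin, was at 437, 384 and 363 CPM on 2% iron and 122, 132 and 154 CPM on 50 ppm (log2 change 1.54, SE 0.16, adjusted p 1.26e-04). Ftl1, the ferritin light chain, was at 4660.1, 4952 and 4868 CPM on 2% iron and 1869, 1994 and 1934 CPM on 50 ppm (log2 change 1.32), with reads that pseudogene copies can share, while the heavy chain Fth1 was at 939.7, 828 and 852 against 885, 959 and 973 CPM and was not called. Per transcript length, the mean of Ftl1 was 2441 TPM on 50 ppm and 6353 TPM on 2% iron, against 1369 and 1324 TPM for Fth1. Trf, the plasma iron carrier transferrin, was at 17401, 16998 and 15324 CPM on 2% iron and 10107, 10255 and 10513 CPM on 50 ppm (log2 change 0.69, adjusted p 0.00725), and Cp, a copper oxidase that loads iron onto transferrin, rose by 0.595.

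The 3 genes called lower on this list were the metal reductases Steap2 and Steap3 and the aconitase Aco1, which acts as iron regulatory protein when iron is low. Steap2 was at 12.2, 10.9 and 13.1 against 18.8, 20.5 and 17.7 CPM and fell by 0.66 (adjusted p 0.00247), Steap3 fell by 0.63 and Aco1 by 0.42. Lcn2, lipocalin 2, which binds iron-carrying bacterial siderophores, had the largest rise of the list, at 105, 23.4 and 55.3 CPM on 2% iron and 5.33, 15.3 and 6.63 CPM on 50 ppm (log2 change 2.76, SE 0.71, adjusted p 0.0187), or 2.11 without 2% mouse 1 and 3.35 without 50 ppm mouse 2. Its 2% mice lay above its 50 ppm mice but far apart from each other. The metal reductase Steap4 and the importer Slc39a14 rose by 0.68 and 0.51. The other members were not called: the transferrin receptor Tfrc was at 21.5, 19.2 and 28.9 against 9.595, 11.1 and 19.7 CPM, the ferritin receptor for autophagy Ncoa4 at a log2 change of 0.23, the iron sensors Ireb2 and Fbxl5 at -0.18 and 0.19, and the importers Slc11a2 and Slc39a8 at -0.25 and -0.15. The iron chaperones Pcbp1 and Pcbp2 were at 0.18 and -0.11, the mitochondrial iron carriers Slc25a37 and Slc25a28 at -0.31 and -0.08 and the ferroxidase Heph at 0.01, while Steap1 and Cybrd1 had too few reads to be tested. Aco1 was not called with limma on either TPM scale (adjusted p up to 0.119). Steap3 was not called without 50 ppm mouse 1 (adjusted p up to 0.053). Lcn2 was not called without 2% mouse 1 or 50 ppm mouse 1 or 3 (adjusted p up to 0.0908). Slc39a14 was not called without 2% mouse 1 or 3 or 50 ppm mouse 1 or 2, or with limma on either TPM scale (adjusted p up to 0.152). The call for Steap4 ended whichever of the 6 mice was left out, and with limma on either TPM scale (adjusted p up to 0.126). The 10 calls became 4 higher and 2 lower without 50 ppm mouse 1, and 4 higher and 3 lower without 2% mouse 1.

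The called genes of heme breakdown were higher and those of heme synthesis lower. Of 11 genes of heme breakdown and scavenging 4 (36.4%, against 15.7% of all genes tested) were called, all higher. Hmox1, the heme oxygenase, was at 57.8, 44.003 and 53.5 CPM on 2% iron and 6.78, 9.67 and 13.6 CPM on 50 ppm (log2 change 2.36, SE 0.52, adjusted p 0.00842). Cd163, the macrophage receptor for haptoglobin-bound hemoglobin, was at 46.8, 42.05 and 41.3 against 10.2, 21.1 and 19.3 CPM (log2 change 1.36), and the lysosomal heme exporter Slc48a1 rose by 0.43. Of 10 genes of heme synthesis 3 (30%) were called, all lower, with a median of -0.29. Alad, the second enzyme of the pathway, was at 49.9, 52.1 and 48.1 CPM on 2% iron and 81.9, 63.3 and 70.6 CPM on 50 ppm (log2 change -0.52, SE 0.11, adjusted p 0.0059), and the porphyrin transporter Abcb6 fell by 0.53 (adjusted p 0.00934). The rate-limiting hepatic enzyme Alas1 was at 237, 164 and 311 against 185, 256 and 179 CPM, with overlap between the groups. The mitochondrial glycine carrier Slc25a38 fell by 0.34, and hemopexin (Hpx), which binds free heme in plasma, rose by 0.803. Hpx was not called without 2% mouse 1 or 50 ppm mouse 1, 2 or 3 (adjusted p up to 0.0794). The call for Slc25a38 ended whichever of the 6 mice was left out, and with no filter on low counts, the 6 mice alone, DESeq2 or limma on either TPM scale (adjusted p up to 0.442).

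The calls among genes of iron-sulfur cluster assembly were small falls. Of 20 genes tested, 3 (15%) were called, against 15.7% of all genes tested. All 3 were lower, with a median of -0.10 over the list. Nfs1, the cysteine desulfurase, was at 32.5, 33.5 and 30.1 CPM on 2% iron and 38.6, 39.8 and 40.9 CPM on 50 ppm (log2 change -0.31, SE 0.07, adjusted p 0.00731), so the groups did not overlap although the fall was small. The scaffold Iscu fell by 0.27. Nfs1 was not called with limma on either TPM scale (adjusted p up to 0.21). Iscu was not called without 2% mouse 2 or 3 or 50 ppm mouse 1 or 3, or with no filter on low counts, the 6 mice alone, the fit lacking the second 500 ppm mouse or limma on either TPM scale (adjusted p up to 0.298). The 3 calls became 0 with limma on either TPM scale, and 1 without 2% mouse 2 or 3 or 50 ppm mouse 1 or 3 or with the 6 mice alone or with no filter on low counts.

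**Figure D2:**
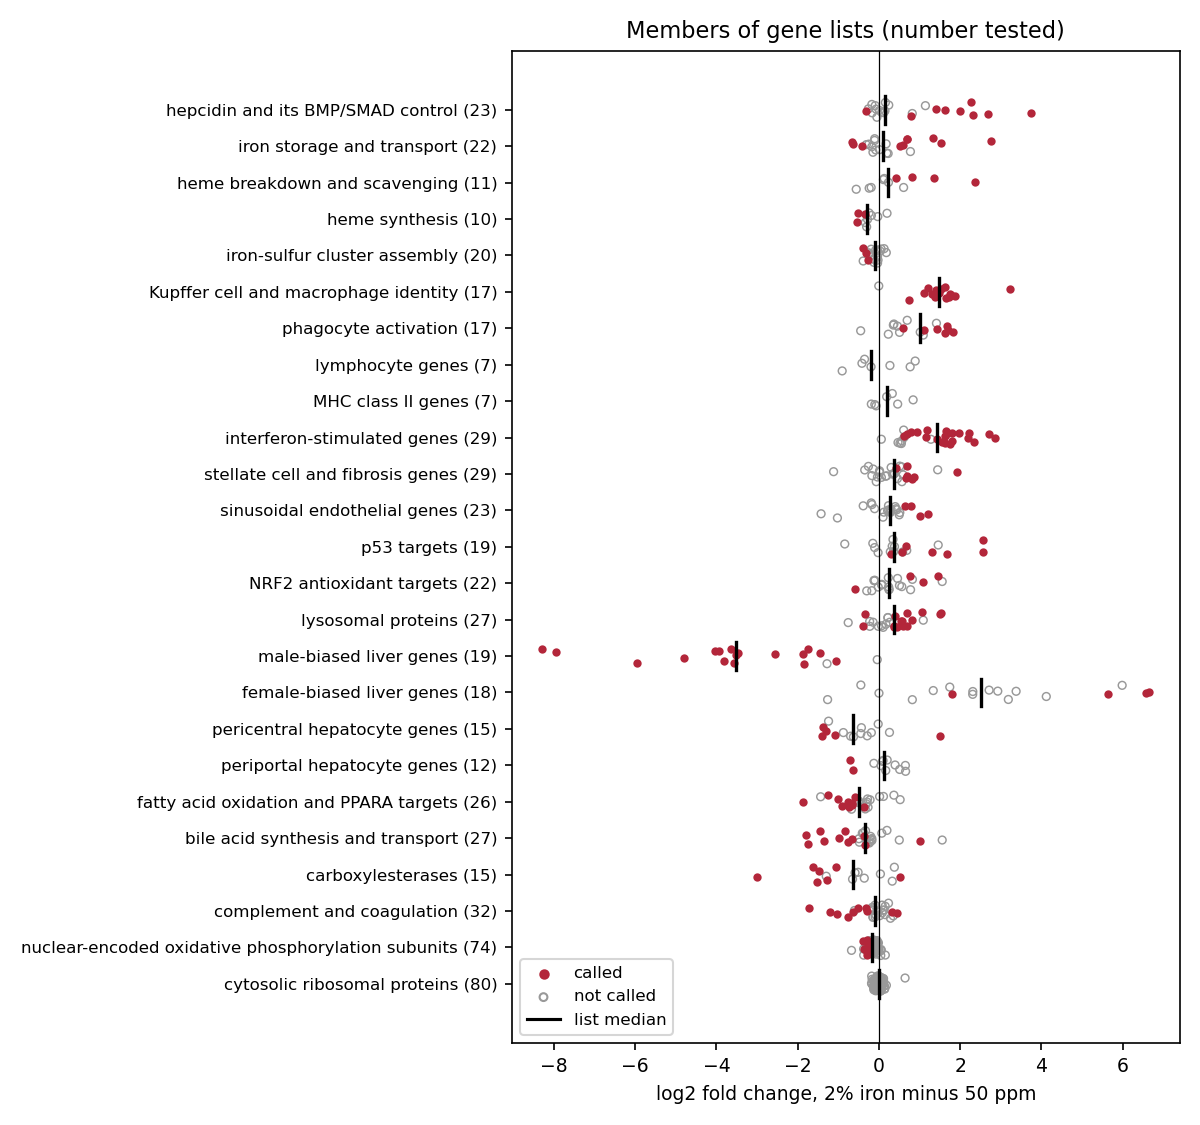
Each point is a tested member of the named gene list, at its log2 fold change (2% iron minus 50 ppm); filled points were called, open points were not, and the bar is the list's median. The Kupffer cell and interferon lists lie to the right with medians of 1.48 and 1.43, the male-biased list to the left with a median of -3.52, and the 80 ribosomal protein genes sit around 0 with no call.

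Kupffer cell genes were higher in all 3 mice on 2% iron. Of 17 genes of Kupffer cell and macrophage identity, 16 were called, all higher, and for 16 the groups lay apart, against 19.2% of all genes tested that lay higher without overlap. Their summed level was 1120.0, 1119 and 1096 CPM on 2% iron and 369, 460.3 and 515 CPM on 50 ppm. Clec4f (ENSMUSG00000014542, chromosome 6 at 83644542 to 83656187), a lectin made by Kupffer cells, was at 145, 154 and 144 CPM on 2% iron and 35.9, 53.7 and 54.2 CPM on 50 ppm (log2 change 1.62, SE 0.21, adjusted p 5.34e-04). Timd4, a receptor of resident Kupffer cells for dying cells, was at 12.7, 13.7 and 12.8 against 2.52, 3.38 and 5.55 CPM (log2 change 1.76), and the complement gene C1qb at 70.1, 63.6 and 57.6 against 17.3, 22.4 and 21.6 CPM (log2 change 1.64). Marco, a scavenger receptor, rose by 3.23 from 2.03 to 5.97 CPM to 25.3 to 37.6 CPM, and by 3.90 without 50 ppm mouse 3. Cd5l, Vsig4, Folr2, Csf1r and Adgre1 rose by 1.77, 1.73, 1.86, 1.48 and 1.38. The only member not called was the broadly expressed receptor Nr1h3, at -0.01. Without 50 ppm mouse 1, 12 calls were made.

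Genes of phagocyte activation rose in part. Of 17 tested 7 (41.2%, against 15.7% of all genes tested) were called, all higher, with a median of 1.02. Clec7a, a receptor for fungal glucans, was at 14.5, 9.96 and 12.6 CPM on 2% iron and 3.198, 3.38 and 4.72 CPM on 50 ppm (log2 change 1.704, SE 0.27, adjusted p 0.00145), and the lysosomal marker Cd68 rose by 1.62. Lgals3 had the largest rise of the list, 1.82 (adjusted p 0.0115), and Tyrobp rose by 1.67 (adjusted p 0.00495). Lgals3 was not called without 50 ppm mouse 1 (adjusted p up to 0.0595). Trem2, Gpnmb and Spp1, at log2 changes of 0.46, 1.41 and -0.45, were not called. Of 15 chemokine and cytokine genes 3 were called higher and 1 lower (26.7%). The chemokine Ccl6, made by myeloid cells, was at 32.6, 24.6 and 23.5 CPM on 2% iron and 3.198, 5.22 and 5.05 CPM on 50 ppm (log2 change 2.58, SE 0.38, adjusted p 0.00105), and Ccl24 rose by 1.47. For the activation list, the 7 calls became 4 without 50 ppm mouse 1. For the chemokines and cytokines, the 4 calls became 2 higher and 0 lower without 2% mouse 3 or 50 ppm mouse 1 or with limma on either TPM scale, and 5 higher and 1 lower with the 6 mice alone.

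Among markers of other cell types, those of lymphocytes, bile ducts and MHC class II gave no call. Of 17 lymphocyte genes 7 were tested and none was called by edgeR or DESeq2 or had an unadjusted p below 0.05. Their summed level was 8.02 to 14.004 CPM on 2% iron and 8.43 to 8.87 CPM on 50 ppm. Likewise, of 7 tested genes of MHC class II and 7 biliary genes, none was called by edgeR or DESeq2 or had an unadjusted p below 0.05. Of 13 neutrophil genes 7 were tested, and the receptor Csf3r was the single call (14.3%, against 15.7% of all genes tested). Csf3r was at 7.04, 4.0003 and 4.78 against 1.36, 1.74 and 2.32 CPM (log2 change 1.53), and the summed level of the 13 was 11.02 to 24.03 CPM against 3.30 to 5.14 CPM. Of 23 sinusoidal endothelial genes 4 (17.4%) were called, all higher. Among them was Cdh5, the cadherin of endothelial junctions, at 49.6, 52.3 and 49.8 CPM on 2% iron and 19.5, 25.7 and 29.4 CPM on 50 ppm (log2 change 1.02, SE 0.15, adjusted p 9.66e-04). Of 29 stellate cell and fibrosis genes 7 (24.1%) were called, all higher, with a median of 0.37. The pericyte gene Rgs5 led them at 110.3, 111 and 95.9 CPM on 2% iron and 22.2, 27.8 and 33.2 CPM on 50 ppm (log2 change 1.93, SE 0.25, adjusted p 4.89e-04). The fibrillar collagens Col1a1 and Col3a1 were at 0.01 and -0.04. For the stellate list, the 7 calls became 1 higher and 0 lower without 2% mouse 3 or 50 ppm mouse 1, 3 higher and 0 lower without 2% mouse 1 or with limma on either TPM scale, and 7 higher and 1 lower with the 6 mice alone. For the neutrophil list, the 1 call became 2 with the 6 mice alone or without the second 500 ppm mouse or with limma on either TPM scale, and 3 with DESeq2. For the endothelial list, the 4 calls became 2 higher and 1 lower without 50 ppm mouse 1, and 4 higher and 1 lower with DESeq2.

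Interferon-stimulated genes rose together. All 29 genes of the list were tested and 21 (72.4%, against 15.7% of all genes tested) were called, all higher, with a median of 1.43. For 27 of the 29 the 2% mice lay above the 50 ppm mice without overlap, against 19.2% of all genes tested. Rsad2 (ENSMUSG00000020641, chromosome 12 at 26442746 to 26456452), which encodes the antiviral enzyme viperin, was at 130.1, 129 and 77.2 CPM on 2% iron and 22.8, 17.2 and 11.8 CPM on 50 ppm (log2 change 2.71, SE 0.34, adjusted p 4.89e-04). Oas3, a sensor of double-stranded RNA, was at 10.03, 12.9 and 11.8 CPM on 2% iron and 1.65, 1.45 and 1.66 CPM on 50 ppm (log2 change 2.86, SE 0.41, adjusted p 8.61e-04). Irf7, the factor that amplifies type I interferon responses, was at 129, 145 and 131 CPM on 2% iron and 46.04, 40.5 and 29.8 CPM on 50 ppm (log2 change 1.802, SE 0.32, adjusted p 0.00305). In each of these 3 genes the lowest 2% mouse lay above the highest 50 ppm mouse.

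The other called members followed the same direction at different sizes. Oasl2, Ifit2 and Oas1a rose by 2.34, 2.22 and 2.201, and Ifit1, Isg15 and Ifit3 by 1.79, 1.66 and 1.62. Smaller rises were found for Bst2 (0.79), Irgm1 (0.69) and the RNA sensor Ifih1 (0.62). Oasl1, an inhibitor of Irf7 translation that was not on the list, was at 70.5, 84.01 and 71.9 CPM on 2% iron and 19.1, 18.7 and 10.4 CPM on 50 ppm and had the smallest adjusted p among genes called higher with a mean of at least 10 CPM (log2 change 2.24, SE 0.201, adjusted p 8.17e-05). Among the GTPases that interferon gamma induces, Gbp3 and Gbp7 rose by 1.43 and 0.92, while Gbp2, Gbp6, Igtp, Irgm2 and Iigp1 were at 0.61, 0.56, 0.55, 0.47 and 0.06 and were not called. The chemokines Cxcl9 (-0.05) and Cxcl10 (0.71) were not called either. The Kupffer list above had moved with the same mice, and its part in these rises was not tested. Gbp3 was not called without 50 ppm mouse 1 (adjusted p up to 0.053). Bst2 was not called without 2% mouse 2 or 3 or 50 ppm mouse 3 (adjusted p up to 0.0668). The call for Gbp7 ended whichever of the 6 mice was left out, and with limma on either TPM scale (adjusted p up to 0.136).

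Some of these promoters carry the letters of the interferon-stimulated response element. It was searched as GAAA, any 2 bases and GAAA again, on both strands, after the values had been seen. It lay in 14 of the 20 windows available for the list, in 7.46% of windows of genes called higher, in 2.68% of those called lower and in 3.35% of all 10183. These stretches are shown for 4 strongly raised members, with matches on either strand in capitals. They lie at chr12:26456543-26456592 on the minus strand for Rsad2, chr5:120777705-120777754 on the minus strand for Oas3, chr4:156200855-156200916 on the minus strand for Isg15 and chr19:34640765-34640833 on the plus strand for Ifit1.
Rsad2: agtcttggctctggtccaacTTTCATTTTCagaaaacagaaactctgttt
Oas3: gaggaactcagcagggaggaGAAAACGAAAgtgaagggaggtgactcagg
Isg15: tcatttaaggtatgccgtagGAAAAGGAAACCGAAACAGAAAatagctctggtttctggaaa
Ifit1: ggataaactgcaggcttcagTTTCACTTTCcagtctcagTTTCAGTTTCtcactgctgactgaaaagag
Isg15 holds 3 overlapping matches and Ifit1 holds 2. The windows of Irf7, Oasl1, Oasl2 and Ifit2 held none.

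The calls among targets of the hypoxia-inducible factors were rises. This list of 24 genes was written after values of these data had been seen, so its count is a description. Of 23 tested 13 (56.5%, against 15.7% of all genes tested) were called, all higher, with a median of 1.22. Pkm, the muscle-type pyruvate kinase of glycolysis, was at 71.8, 58.05 and 57.5 CPM on 2% iron and 11.3, 11.6 and 14.999 CPM on 50 ppm (log2 change 2.299, SE 0.27, adjusted p 3.69e-04). P4ha1, a collagen prolyl hydroxylase, was at 19.7, 13.6 and 23.6 CPM on 2% iron and 5.72, 6.86 and 7.13 CPM on 50 ppm (log2 change 1.53, SE 0.202, adjusted p 5.84e-04), and Egln3, the oxygen sensor that marks the factors for decay, rose by 1.36. Epo, the hormone of red cell production, had no count in any 50 ppm mouse and 2.90, 0.533 and 1.88 CPM on 2% iron. The mean of the 2% mice, 1.77 CPM, was 6.09 times the floor of 3 counts per library (0.291 CPM), and 2% mouse 2 lay nearer to that floor.

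Members of this list varied among the 3 mice on 2% iron. Ndufa4l2, a mitochondrial protein that lowers oxygen use, was at 29.8, 10.4 and 7.51 CPM on 2% iron and 0.775, 1.84 and 0.746 CPM on 50 ppm (log2 change 3.84), and its change was 2.99 without 2% mouse 1. Ankrd37 was at 3.48, 1.24 and 6.49 CPM on 2% iron and 0.485, 0.193 and 0 CPM on 50 ppm, where mice 2 and 3 lay below the floor of 3 counts. Its log2 change of 4.05 moved to 3.39 without 2% mouse 3, 5.23 without 50 ppm mouse 1 and 3.43 without 50 ppm mouse 3. Bnip3, a mitophagy receptor, and Ldha, lactate dehydrogenase, were highest in 2% mouse 1, at 519, 282 and 246 against 145, 146 and 182 CPM and 1467, 1007 and 739 against 684, 571 and 525 CPM. Vegfa rose by 0.65. Slc2a1, Pgk1 and Pdk1, at 0.34, 0.49 and 0.26, were not called. Bnip3 was not called without 2% mouse 1 or 50 ppm mouse 1 or 2 (adjusted p up to 0.122). Vegfa was not called without 2% mouse 1 or 3 or 50 ppm mouse 1 or 2, or with limma on either TPM scale (adjusted p up to 0.118). Ldha was not called without 2% mouse 1 or 2 or 50 ppm mouse 1, 2 or 3, or with limma on either TPM scale (adjusted p up to 0.168). The 13 calls became 7 with at least 10 counts in every library (fewer members tested), and 8 without 2% mouse 1 or 50 ppm mouse 1.

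Globin transcripts rose while the erythroid heme enzyme fell. The summed level of 4 globin genes was 415, 447 and 301 CPM on 2% iron and 22.5, 48.7 and 18.2 CPM on 50 ppm, which is 13.0-fold higher. Of 10 erythroid genes tested, globins included, 5 were called higher and 1 lower (60%, against 15.7% of all genes tested). The copies of each globin are near-identical, so the split between them is uncertain. Hba-a2 was at 75.2, 68.5 and 49.4 CPM on 2% iron and 4.65, 7.06 and 2.73 CPM on 50 ppm (log2 change 3.75, SE 0.47, adjusted p 4.89e-04), and Hba-a1, Hbb-bs and Hbb-bt rose by 3.66, 3.83 and 3.55, with Hba-a1 at 4.27 without 50 ppm mouse 2. Alas2 (ENSMUSG00000025270, chromosome X at 150547375 to 150570638), the erythroid form of the first enzyme of heme synthesis, was at 17.3, 28.3 and 18.7 CPM on 2% iron and 86.9, 46.2 and 49.7 CPM on 50 ppm (log2 change -1.51, SE 0.24, adjusted p 0.0017), with all 3 mice on 2% iron below all 3 on 50 ppm. Slc4a1, the red cell anion exchanger, was at 6.38, 2.76 and 2.82 against 0.194, 0.387 and 0.0829 CPM (log2 change 4.15, or 4.79 without 50 ppm mouse 2). For it, 50 ppm mice 1 and 3 lay below the floor of 3 counts. Slc4a1 was not called without 2% mouse 1 or 50 ppm mouse 1, 2 or 3, or with limma on either TPM scale (adjusted p up to 0.0972). Gata1 and Rhag had too few reads to be tested, Klf1 was at -0.34, and blood held in the tissue was not measured.

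Male-biased transcripts fell steeply. Of 19 male-biased liver genes 17 (89.5%, against 15.7% of all genes tested) were called, all lower, with a median of -3.52. The 22 major urinary protein genes, pheromone carriers that male mouse liver secretes, summed to 2585, 4383 and 3589 CPM on 2% iron and 57097, 23401 and 23678 CPM on 50 ppm, 9.87-fold lower. Of 21 tested, 20 (95.2%) were called lower. The male-biased list and this family both hold Mup7 (log2 change -8.29), so their counts are not separate. Mup19 was at 112, 133 and 172 CPM on 2% iron and 7559.6, 4228 and 4028 CPM on 50 ppm (log2 change -5.24, SE 0.45, adjusted p 7.90e-05), and Mup21 at 5.63, 14.7 and 10.8 against 218, 101 and 122 CPM (log2 change -3.83). Reads of these paralogs can be shared, so values of single copies are uncertain. The first 50 ppm mouse stood above its mates in the summed level. For the male-biased list, the 17 calls became 11 with at least 10 counts in every library (fewer members tested). For the Mup genes, the 20 calls became 8 with at least 10 counts in every library (fewer members tested).

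Male-biased genes outside that family fell too. Cyp4a12a, a fatty acid hydroxylase, was at 17.7, 24.3 and 28.2 CPM on 2% iron and 553, 267 and 253 CPM on 50 ppm (log2 change -3.93, SE 0.42, adjusted p 1.44e-04). The steroid dehydrogenase gene Hsd3b5 was at 12.9, 28.002 and 9.39 against 164, 51.6 and 78.9 CPM (log2 change -2.55). Cyp2d9 and the organic anion transporter Slco1a1 fell by 1.85 and 1.45, and the sulfotransferase Sult2a8 by 1.76. Serpina1e, an antitrypsin copy, fell by 3.52, and by 2.85 without 50 ppm mouse 1. None of the 14 windows available for the Mup genes held TTCNNNGAA.

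Some female-biased genes rose. Of 22 genes 18 were tested and 4 (22.2%, against 15.7% of all genes tested) were called, all higher, although the median was 2.51. The 5 genes of the Cyp2b family summed to 230.0, 134.5 and 166 CPM on 2% iron and 1.16, 4.35 and 1.82 CPM on 50 ppm, 72.2-fold higher. As log2 this is 6.17, or 6.89 without 50 ppm mouse 2. Cyp2b10, a P450 that the receptor CAR induces, was at 37.04, 28.7 and 31.7 CPM on 2% iron and 0.582, 1.35 and 0.0829 CPM on 50 ppm (log2 change 5.63, SE 1.19, adjusted p 0.00684), and its log2 change was 6.65 without 50 ppm mouse 2. Members with large fitted changes but no call were Cux2 at 12.02, 6.22 and 13.2 against 0.775, 0.387 and 2.15 CPM and A1bg at 9.36, 2.93 and 1.28 against 0, 1.74 and 0.0829 CPM. The 4 calls became 1 without 50 ppm mouse 1 or with at least 10 counts in every library (fewer members tested), 2 without 2% mouse 1 or 3 or 50 ppm mouse 3, 7 with the 6 mice alone, and 8 without the second 500 ppm mouse.

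The growth hormone axis, which sets these programs, showed mixed changes. Of 14 genes tested, 2 rose and 4 fell. The receptor Ghr was at 251, 289 and 311 CPM on 2% iron and 553, 434 and 515 CPM on 50 ppm (log2 change -0.82, SE 0.13, adjusted p 0.00148), and the binding protein Igfbp2 was at 83.8, 136 and 91.1 CPM on 2% iron and 390.1, 319 and 271 CPM on 50 ppm (log2 change -1.66, SE 0.24, adjusted p 9.44e-04), both without overlap. Igfbp1 rose by 1.47. Igf1, the main target of the hormone, was at 518, 451 and 452 against 467, 396 and 566 CPM with a log2 change of -0.01. The transducers Stat5a, Stat5b and Jak2 were at -0.08, -0.04 and 0.05, and the repressor Bcl6 at -1.55 was not called (adjusted p 0.0506). Igfbp1 was not called without 2% mouse 1 or 3 or 50 ppm mouse 1 or 3 (adjusted p up to 0.145). The 6 calls became 0 higher and 2 lower without 50 ppm mouse 1 or 3, 1 higher and 2 lower without 2% mouse 3, and 2 higher and 2 lower without 2% mouse 2 or with the 6 mice alone or with limma on either TPM scale.

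Most calls among drug-metabolising enzymes were falls. Of 61 genes tested of cytochrome P450 families 1 to 4, 12 were called lower and 6 higher (29.5%, against 15.7% of all genes tested). Cyp2e1 (ENSMUSG00000025479, chromosome 7 at 140763739 to 140774987), which oxidises ethanol and makes peroxides, was at 2957, 3223 and 2843 CPM on 2% iron and 6906, 5409 and 6679 CPM on 50 ppm (log2 change -1.07, SE 0.13, adjusted p 4.89e-04). Of 18 UDP-glucuronosyltransferases 6 (33.3%) were called, all lower. Among them was Ugt3a1 at 21.05, 25.9 and 24.9 against 91.01, 66.5 and 77.6 CPM (log2 change -1.71). Of 15 carboxylesterases 6 were called lower and 1 higher (46.7%). Ces2c was at 1.49, 1.6001 and 3.24 CPM on 2% iron and 27.5, 14.6 and 8.95 CPM on 50 ppm (log2 change -2.997, SE 0.55, adjusted p 0.0036), Ces1f at 77.7, 119 and 125 against 342, 271 and 384 CPM and Ces3a at 461, 674 and 468 against 2063, 1117 and 1422 CPM, with log2 changes of -1.63 and -1.52. Carboxylesterase and P450 paralogs can share reads. For the P450 list, the 18 calls became 2 higher and 9 lower without 50 ppm mouse 1, 2 higher and 11 lower without 50 ppm mouse 3, and 3 higher and 11 lower without 2% mouse 1. For the UDP-glucuronosyltransferases, the 6 calls became 3 without 2% mouse 3 or 50 ppm mouse 1 or with limma on either TPM scale.

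Most calls among pericentral zonation markers were falls, while periportal calls were few. Of 15 pericentral genes 4 were called lower and 1 higher (33.3%, against 15.7% of all genes tested), with a median of -0.63. For 9 of the 15 the 2% mice lay below the 50 ppm mice without overlap, against 17.7% of all genes tested. The glutamate transporter Slc1a2 was at 70.3, 66.9 and 61.9 CPM on 2% iron and 154, 163 and 172 CPM on 50 ppm (log2 change -1.29, SE 0.22, adjusted p 0.00247), and the receptor gene Lgr5 fell by 1.37. Glul, glutamine synthetase, was at 771, 684 and 680.4 against 966, 1053 and 893 CPM (log2 change -0.45) and was not called. Slc13a3, a dicarboxylate carrier, rose by 1.502, at 29.1, 28.002 and 28.5 against 10.7, 8.99 and 10.5 CPM. Of 12 periportal genes 2 (16.7%) were called, both lower, Cyp2f2 by 0.72 and Pck1 by 0.65. The median of the list was 0.13, and 9 of the 12 had a positive log2 change. Cyp2f2 was not called without 2% mouse 1 or 3 or 50 ppm mouse 1 (adjusted p up to 0.119). Lgr5 was not called without 2% mouse 1 or 50 ppm mouse 1 or 3, or with limma on either TPM scale (adjusted p up to 0.217). Pck1 was not called without 2% mouse 1 or 3 or 50 ppm mouse 2 or 3, or with the 6 mice alone or limma on either TPM scale (adjusted p up to 0.113). For the pericentral list, the 5 calls became 1 higher and 2 lower without 50 ppm mouse 1 or with limma on log2(TPM + 1), and 1 higher and 8 lower with the 6 mice alone. For the periportal list, the 2 calls became 0 without 2% mouse 1 or 3, 0 higher and 1 lower without 50 ppm mouse 1, 2 or 3 or with limma on either TPM scale, 1 higher and 2 lower with DESeq2 or without the second 500 ppm mouse, and 2 higher and 1 lower with the 6 mice alone.

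The calls among genes of fatty acid oxidation were falls. Of 26 genes of oxidation and PPARA targets, 11 (42.3%, against 15.7% of all genes tested) were called, all lower, with a median of -0.50. For 15 the groups did not overlap, against 17.7% of all genes tested that lay lower without overlap. Acaa1b, a peroxisomal thiolase, was at 283, 236 and 170.0 CPM on 2% iron and 918, 689 and 931 CPM on 50 ppm (log2 change -1.88, SE 0.26, adjusted p 6.49e-04). Cpt1a, the gate of mitochondrial import, was at 430.5, 417 and 338 CPM on 2% iron and 766, 735 and 738 CPM on 50 ppm (log2 change -0.92, SE 0.18, adjusted p 0.00518). Acadm and Decr1 fell by 0.67 and 0.73. Targets that often follow PPARA did not all move: Pdk4 was at 0.02, Cyp4a14 at 0.11 and Ppara itself at -0.49. Decr1 was not called without 2% mouse 3 or 50 ppm mouse 1 (adjusted p up to 0.0626). Acadm was not called without 2% mouse 2 or 3 or 50 ppm mouse 1, or with limma on either TPM scale (adjusted p up to 0.0733). The 11 calls became 3 without 2% mouse 3 or 50 ppm mouse 1, 5 with limma on either TPM scale, and 6 without 2% mouse 2 or 50 ppm mouse 2.

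Lipoprotein genes changed in both directions. Of 20 genes of lipid droplets and lipoproteins tested 3 were called higher and 2 lower (25%, against 15.7% of all genes tested). The 5 calls became 3 higher and 0 lower with limma on either TPM scale, and 3 higher and 4 lower with the 6 mice alone. Apoa4 (ENSMUSG00000032080, chromosome 9 at 46240696 to 46243459), an apolipoprotein of triglyceride-rich particles, was at 7831, 4882 and 4199 CPM on 2% iron and 1239, 1822 and 1278 CPM on 50 ppm (log2 change 1.96, SE 0.298, adjusted p 0.00115). Apoc3, an inhibitor of lipoprotein lipase, rose by 1.05. Apoa1, the main protein of high-density lipoprotein, was at 4575, 4637 and 3968 CPM on 2% iron and 8722, 7922 and 7273 CPM on 50 ppm and fell by 0.86 (adjusted p 0.00112). Of 24 genes of cholesterol synthesis 2 (8.33%) were called, against 15.7% of all genes tested. Both were lower, Mvk by 1.01 and Tm7sf2 by 0.87. For cholesterol synthesis, the 2 calls became 0 without 2% mouse 1 or 50 ppm mouse 1 or 2, and 1 without 2% mouse 2 or 3 or 50 ppm mouse 3 or with limma on either TPM scale. Of 18 genes of lipogenesis the carboxylase Acaca was the single call (5.56%), with a rise of 1.298. For lipogenesis, the 1 call became 0 without 2% mouse 2 or 3 or 50 ppm mouse 1 or 3 or with limma on either TPM scale, 1 higher and 1 lower with the 6 mice alone, 3 higher and 0 lower without 50 ppm mouse 2, and 4 higher and 0 lower without 2% mouse 1. The summed level of the lipogenesis list ran from 11028 to 35870 CPM within the 2% group. Mvk was not called without 2% mouse 1 or 2 or 50 ppm mouse 1 or 2 (adjusted p up to 0.0769). Acaca was not called without 2% mouse 2 or 3 or 50 ppm mouse 1 or 3, or with limma on either TPM scale (adjusted p up to 0.173). Tm7sf2 was not called without 2% mouse 1 or 3 or 50 ppm mouse 1, 2 or 3, or with limma on either TPM scale (adjusted p up to 0.147).

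Genes of bile acid synthesis and uptake mostly fell among those called. Of 27 genes tested 10 were called lower and 1 higher (40.7%, against 15.7% of all genes tested), with a median of -0.35. Cyp8b1, the hydroxylase that makes cholic acid, was at 328, 329 and 308 CPM on 2% iron and 765, 601 and 536 CPM on 50 ppm (log2 change -0.98, SE 0.197, adjusted p 0.00556). Baat, which conjugates bile acids, was at 147, 149 and 132 CPM on 2% iron and 251, 219 and 205 CPM on 50 ppm (log2 change -0.66, SE 0.104, adjusted p 0.0015), and the uptake carrier Slco1b2 fell by 0.84. Cyp7a1, the rate-limiting enzyme of the pathway, was at 102, 91.03 and 133 CPM on 2% iron and 335, 148 and 353 CPM on 50 ppm and fell by 1.36 (adjusted p 0.0319). Nr0b2, the bile acid-induced repressor known as SHP, was at 9.45, 14.4 and 4.52 against 35.7, 37.1 and 25.9 CPM and fell by 1.798. The uptake carrier Slc10a1 and the export pump Abcb11 were at -0.17 and -0.38 and were not called. Nr0b2 was not called without 2% mouse 1 or 3 or 50 ppm mouse 1 or 2 (adjusted p up to 0.0731). Cyp7a1 was not called without 2% mouse 1, 2 or 3 or 50 ppm mouse 1 or 3 (adjusted p up to 0.116). The 11 calls became 0 higher and 5 lower without 50 ppm mouse 1, 1 higher and 5 lower without 2% mouse 3, and 0 higher and 7 lower without 2% mouse 1.

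Plasma defence proteins changed in both directions. Of 32 genes of complement and coagulation 8 were called lower and 2 higher (31.25%, against 15.7% of all genes tested). Of the 8, 5 build the membrane attack complex. C8a was at 240.1, 335 and 239 CPM on 2% iron and 836, 465 and 581 CPM on 50 ppm (log2 change -1.21, SE 0.19, adjusted p 0.00159), C6 was at 72.5, 78.1 and 59.6 against 385, 157 and 149 CPM and fell by 1.72, or by 1.13 without 50 ppm mouse 1, and C9, C8b and C8g fell by 1.03, 0.64 and 0.52. Coagulation factors F2, F5, F7, F9 and F11 lay between -0.15 and 0.15 and were not called. Of 25 acute phase genes 7 were called higher and 3 lower (40%). Lcn2, Hpx, Cp, Serpina3n and Serpina3m, described with other lists, were among the rises. The serum amyloid genes fell: Saa4 was at 68.4, 71.6 and 74.1 CPM on 2% iron and 184, 117 and 128 CPM on 50 ppm (log2 change -1.002, SE 0.17, adjusted p 0.00247), and Saa2 fell by 2.27, or by 1.61 without 50 ppm mouse 2. Saa1 fell by 2.398, while Apcs, serum amyloid P, rose by 1.35 and Itih3 by 0.78. Copies of the Saa genes can share reads. C9 was not called without 2% mouse 1 or 50 ppm mouse 1 (adjusted p up to 0.0963). C8g was not called without 2% mouse 1 or 3 or 50 ppm mouse 1, or with limma on either TPM scale (adjusted p up to 0.118). C8b was not called without 2% mouse 1 or 3 or 50 ppm mouse 1, or with the 6 mice alone or limma on either TPM scale (adjusted p up to 0.215). Saa1 was not called without 2% mouse 2 or 3 or 50 ppm mouse 2 (adjusted p up to 0.0619). Apcs was not called without 2% mouse 1 or 2 or 50 ppm mouse 1 or 3 (adjusted p up to 0.146). Itih3 was not called without 2% mouse 1 or 2 or 50 ppm mouse 1, 2 or 3, or with limma on either TPM scale (adjusted p up to 0.152). For complement and coagulation, the 10 calls became 0 higher and 3 lower without 50 ppm mouse 1, 0 higher and 5 lower without 2% mouse 1, 1 higher and 4 lower without 2% mouse 3, and 2 higher and 5 lower with the 6 mice alone or with limma on either TPM scale. For the acute phase list, the 10 calls became 1 higher and 3 lower without 2% mouse 1 or 50 ppm mouse 1 or 3, and 3 higher and 2 lower without 2% mouse 2.

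Calls among targets of NRF2, the oxidative stress regulator, went in both directions. Of 22 NRF2 targets 3 were called higher and 1 lower, which is 18.2% against 15.7% of all genes tested. Hmox1, which rose by 2.36, was not on this list and is described with heme breakdown. Gstm3, described with the glutathione S-transferases, was not on it either. Nqo1, a quinone reductase, was at 10.2, 9.33 and 8.704 CPM on 2% iron and 2.81, 3.48 and 3.89 CPM on 50 ppm (log2 change 1.46, SE 0.2999, adjusted p 0.00596), and catalase (Cat) was at 1765, 1939 and 1701 CPM on 2% iron and 3105, 2489 and 2533 CPM on 50 ppm (log2 change -0.59, SE 0.13, adjusted p 0.00759). The 4 calls became 1 higher and 1 lower without 2% mouse 3 or 50 ppm mouse 1. The glutamate-cysteine ligase genes Gclc and Gclm were at 0.46 and -0.12, and thioredoxin reductase (Txnrd1) at 0.23. None of 15 endoplasmic reticulum chaperones was called by edgeR or DESeq2, with a median of -0.10, 1 had an unadjusted p below 0.05, and 1 was called lower without 50 ppm mouse 3 or with the 6 mice alone. Of 12 heat shock genes 2 (16.7%) were called: the small chaperone Hspb8 rose by 0.81 and mitochondrial Hspd1 fell by 0.38. Of 11 ferroptosis genes tested Slc3a2, the heavy chain of the cystine carrier, was the single call (9.09%), with a rise of 0.53. Gpx4, which reduces lipid peroxides, was at -0.35 (adjusted p 0.0563). For the ferroptosis list, the 1 call became 1 higher and 1 lower with RLE factors or with the 6 mice alone or without the second 500 ppm mouse, 2 higher and 0 lower without 2% mouse 1 or 50 ppm mouse 3, and 1 higher and 2 lower with DESeq2.

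Glutathione S-transferases moved both ways. Of 22 tested 4 were called higher and 5 lower (40.9%, against 15.7% of all genes tested). Gstm3 was at 57.7, 58.8 and 74.3 CPM on 2% iron and 19.9, 24.3 and 19.2 CPM on 50 ppm (log2 change 1.59, SE 0.26, adjusted p 0.00176), and Gstt2 fell by 0.85. The pi-class genes Gstp1 and Gstp2 were lower mainly against 50 ppm mouse 1, at 154, 150.4 and 166 against 528, 208 and 247 CPM and 16.1, 20.7 and 21.8 against 68.7, 28.5 and 30.7 CPM. Their near-identical sequences can share reads. Gstp1 and Gstp2 were not called without 2% mouse 1, 2 or 3 or 50 ppm mouse 1, or with the 6 mice alone or limma on either TPM scale (adjusted p up to 0.22). The 9 calls became 1 higher and 2 lower without 50 ppm mouse 1, 1 higher and 3 lower without 2% mouse 3, 1 higher and 5 lower without 50 ppm mouse 3, 4 higher and 2 lower with limma on either TPM scale, 4 higher and 3 lower without 2% mouse 1, 5 higher and 4 lower with the 6 mice alone, and 4 higher and 8 lower without the second 500 ppm mouse. The metallothioneins Mt1 and Mt2 were at log2 changes of 2.42 and 2.72 and were not called (adjusted p 0.0723 and 0.0568), with Mt2 at 150.3, 50.4 and 69.98 against 7.56, 16.7 and 16.7 CPM.

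Targets of p53 and cell cycle genes rose in part. Of 19 p53 targets 7 (36.8%, against 15.7% of all genes tested) were called, all higher, with a median of 0.38. Btg2, an antiproliferative gene, was at 48.8, 36.6 and 69.04 CPM on 2% iron and 6.88, 11.5 and 7.62 CPM on 50 ppm (log2 change 2.57, SE 0.43, adjusted p 0.00199), and the death receptor Eda2r rose by 2.56. Cdkn1a, the inhibitor p21, was at 163, 116 and 77.3 against 12.7, 96.5 and 20.97 CPM and was not called. For this list, the 7 calls became 4 without 2% mouse 1, 2 or 3 or 50 ppm mouse 1. Of 23 cell cycle genes 8 (34.8%) were called, all higher. The replication helicase gene Mcm6 was at 6.298, 6.401 and 6.4002 CPM on 2% iron and 2.42, 2.42 and 2.73 CPM on 50 ppm (log2 change 1.33, SE 0.33, adjusted p 0.0152), and Ccnd1, cyclin D1, was at 49.6, 103 and 130.1 against 20.1, 15.3 and 12.3 CPM and rose by 2.57. The mitotic genes Ccna2, Cdk1 and Plk1 were at 0.298, 0.82 and 1.57 and were not called. Mcm6 was not called without 50 ppm mouse 1 (adjusted p up to 0.0605). Ccnd1 was not called without 2% mouse 3 or 50 ppm mouse 1, 2 or 3 (adjusted p up to 0.069). For the cell cycle list, the 8 calls became 1 higher and 0 lower without 50 ppm mouse 1, 3 higher and 0 lower without 2% mouse 1 or 50 ppm mouse 3, 4 higher and 0 lower without 2% mouse 3, 5 higher and 0 lower without 2% mouse 2 or with limma on log2(TPM + 1), and 6 higher and 1 lower without 50 ppm mouse 2.

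Most calls among lysosomal genes were rises. Of 27 tested 13 were called higher and 2 lower (55.6%, against 15.7% of all genes tested), with a median of 0.36. Hexa, which degrades gangliosides, was at 45.7, 45.2 and 51.2 CPM on 2% iron and 30.5, 32.6 and 31.9 CPM on 50 ppm (log2 change 0.58, SE 0.08, adjusted p 6.07e-04), and the proteases Ctsd and Ctsb rose by 0.698 and 0.56. Ctss and Laptm5, at 73.01, 55.2 and 55.3 against 15.99, 21.6 and 27.01 CPM and 43.8, 42.7 and 44.9 against 10.5, 14.6 and 19.97 CPM, had the largest changes and are also made by macrophages. Of 19 subunits of the vacuolar proton pump 4 (21.1%) were called, against 15.7% of all genes tested. All 4 were higher, led by Atp6v1g1 with a rise of 0.55. The summed level of the Kupffer list moved with these genes, and its part was not tested. For the lysosomal list, the 15 calls became 7 higher and 1 lower without 50 ppm mouse 1, and 8 higher and 1 lower without 2% mouse 1.

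Calls among respiratory chain genes were lower for nuclear genes and higher for mitochondrially encoded ones, and their numbers depended on the fit. Of 74 nuclear-encoded subunits 10 (13.5%) were called, all lower, with a median of -0.17, against 15.7% of all genes tested called in either direction. For 42 of the 74 the 2% mice lay below the 50 ppm mice without overlap, against 17.7% of all genes tested. Of 13 mitochondrially encoded protein genes 3 (23.1%) were called, all higher, with a median of 0.25. Among them mt-Co1 was at 32114, 25655 and 29433 against 22223, 21602 and 20177 CPM (log2 change 0.45). mt-Co1 was not called without 2% mouse 1 or 3 or 50 ppm mouse 1, 2 or 3, or with RLE factors, no filter on low counts, at least 10 counts in every library, the 6 mice alone or limma on either TPM scale (adjusted p up to 0.177). For the nuclear subunits, the 10 calls became 0 with limma on either TPM scale, 2 without 2% mouse 3 or 50 ppm mouse 1 or 2 or with no filter on low counts, 3 without 2% mouse 1 or with the 6 mice alone, 5 without 2% mouse 2, and 16 with DESeq2. For the mitochondrially encoded genes, the 3 calls became 0 without 2% mouse 1 or 3 or 50 ppm mouse 1, 2 or 3 or with the 6 mice alone or with no filter on low counts, and 1 with limma on either TPM scale. Of 38 proteasome subunits 4 (10.5%) were called, all lower. For the proteasome, the 4 calls became 0 without 2% mouse 1, 2 or 3 or 50 ppm mouse 1 or 2 or with limma on log2(TPM + 0.1) or with no filter on low counts, 1 higher and 0 lower with limma on log2(TPM + 1), 2 higher and 2 lower with the 6 mice alone, and 1 higher and 4 lower with DESeq2. None of 80 cytosolic ribosomal proteins was called by edgeR or DESeq2, and 1 had an unadjusted p below 0.05.

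The levels on the other 3 diets place the 2 groups. Id4 was at 1.72, 4.99 and 1.94 CPM on 500 ppm, 2.26, 1.12 and 2.84 CPM on chow and 11.8, 9.26 and 16.6 CPM on 2% iron with cellulose. Rsad2 was at 12.5, 20.5 and 12.5 CPM on 500 ppm, 17.6, 12.6 and 23.6 CPM on chow and 64.5, 38.9 and 82.5 CPM on 2% iron with cellulose. Both diets with 2% iron were high for these genes and the other 3 diets low. Alas2 was at 51.2, 38.1 and 59.9 CPM on 500 ppm, 93.4, 108 and 93.1 CPM on chow and 9.58, 10.1 and 11.7 CPM on 2% iron with cellulose, and Cyp2e1 at 5699, 4151 and 4930.1 CPM on 500 ppm, 5921, 6048 and 5834 CPM on chow and 2733, 2719 and 2888 CPM on 2% iron with cellulose, so both diets with 2% iron lay below the other 3. Apoa4 was at 1649, 2007 and 1457 CPM on 500 ppm, 120.4, 129 and 212 CPM on chow and 10215, 8937 and 5599 CPM on 2% iron with cellulose, and for it chow lay far below the 50 ppm diet as well. For Slc40a1 the levels were 176, 206 and 124 CPM on 500 ppm, 107, 115 and 110.3 CPM on chow and 559.8, 462 and 500.2 CPM on 2% iron with cellulose.

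**Figure D3:**
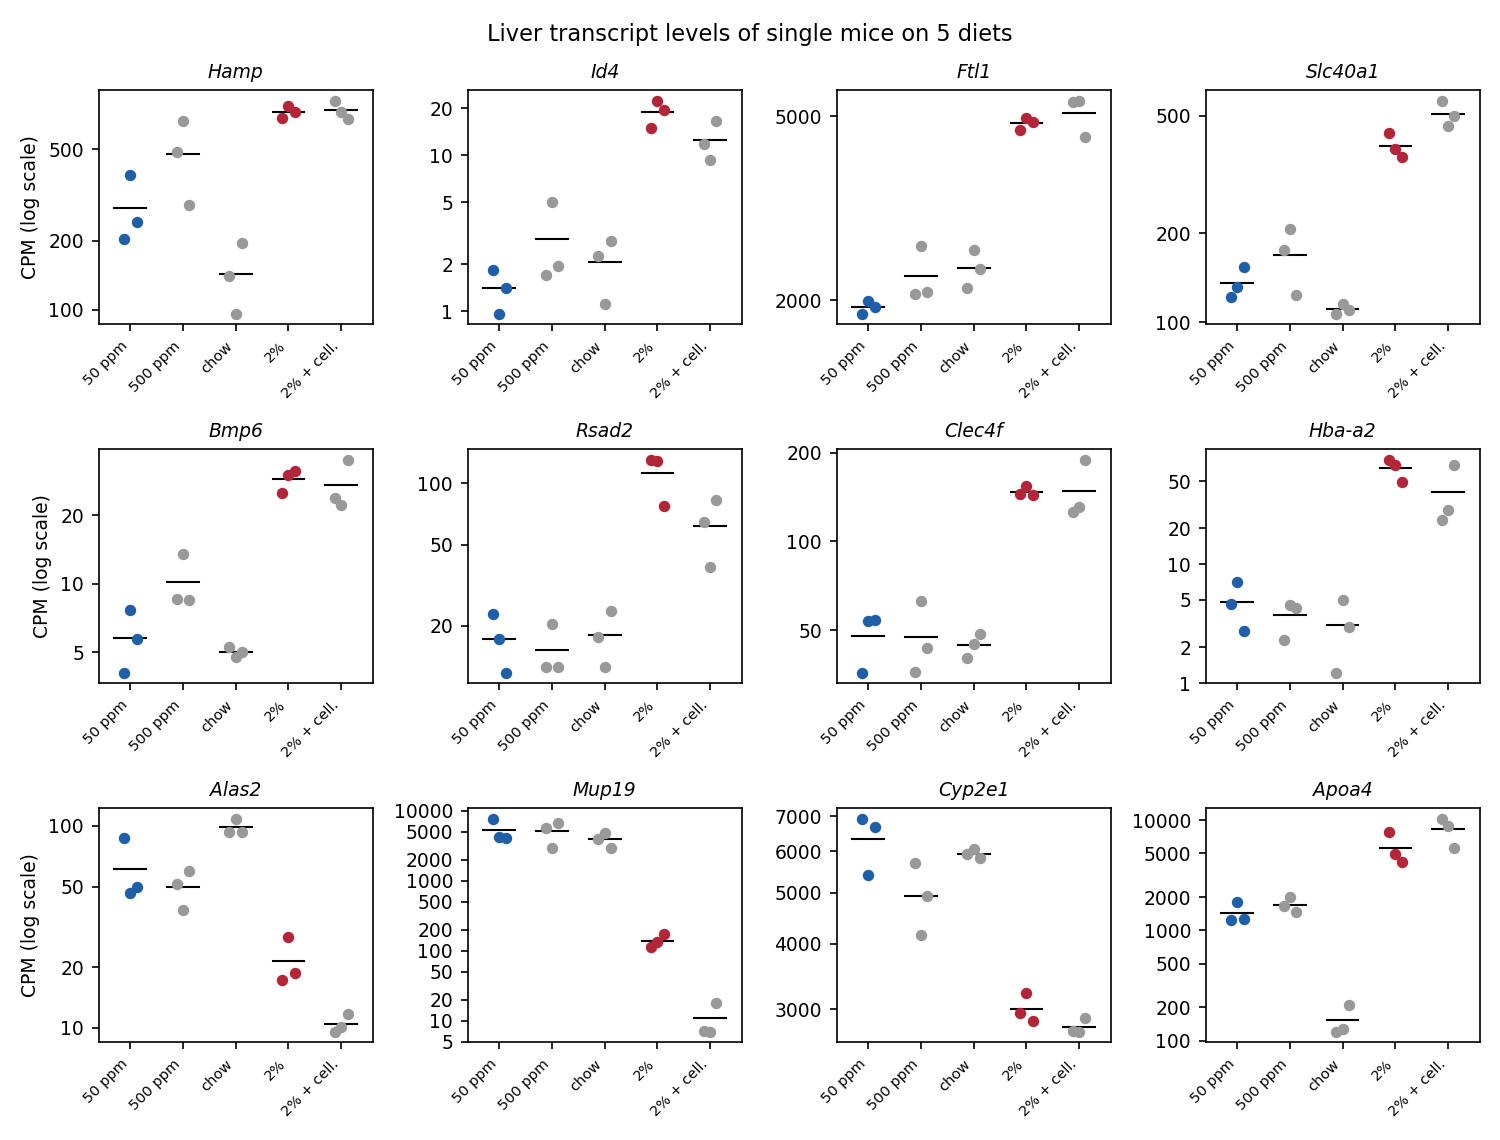
Each point is the level of a gene in 1 mouse (CPM, log axis), by diet, with a bar at the mean of 3 mice; 50 ppm mice are blue, 2% mice red and the other diets grey. For each of the 12 genes the 3 red points lie apart from the 3 blue points, with Id4 at 14.8 to 22.1 CPM against 0.967 to 1.84 CPM.

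On the other diets the summed levels of families varied among mice of 1 diet. The globins were at 12.1, 110 and 20.7 CPM on 500 ppm and at 147, 176 and 419.9 CPM on 2% iron with cellulose. The Mup genes were at 34406, 18228 and 38497 CPM on 500 ppm and 375, 475 and 1032 CPM on 2% iron with cellulose, the lowest of the 5 diets. The Cyp2b family was at 3.36, 214 and 0.719 CPM on 500 ppm, with mouse 2 in the range of the 2% mice. On chow it was at 29.6, 105 and 12.9 CPM, above all 50 ppm mice and below all 2% mice. On 2% iron with cellulose it was at 269, 322 and 337 CPM. The interferon list reached 1163 CPM in 1 chow mouse and 1086 CPM in 1 mouse on 2% iron with cellulose, so these groups met.

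**Figure D4:**
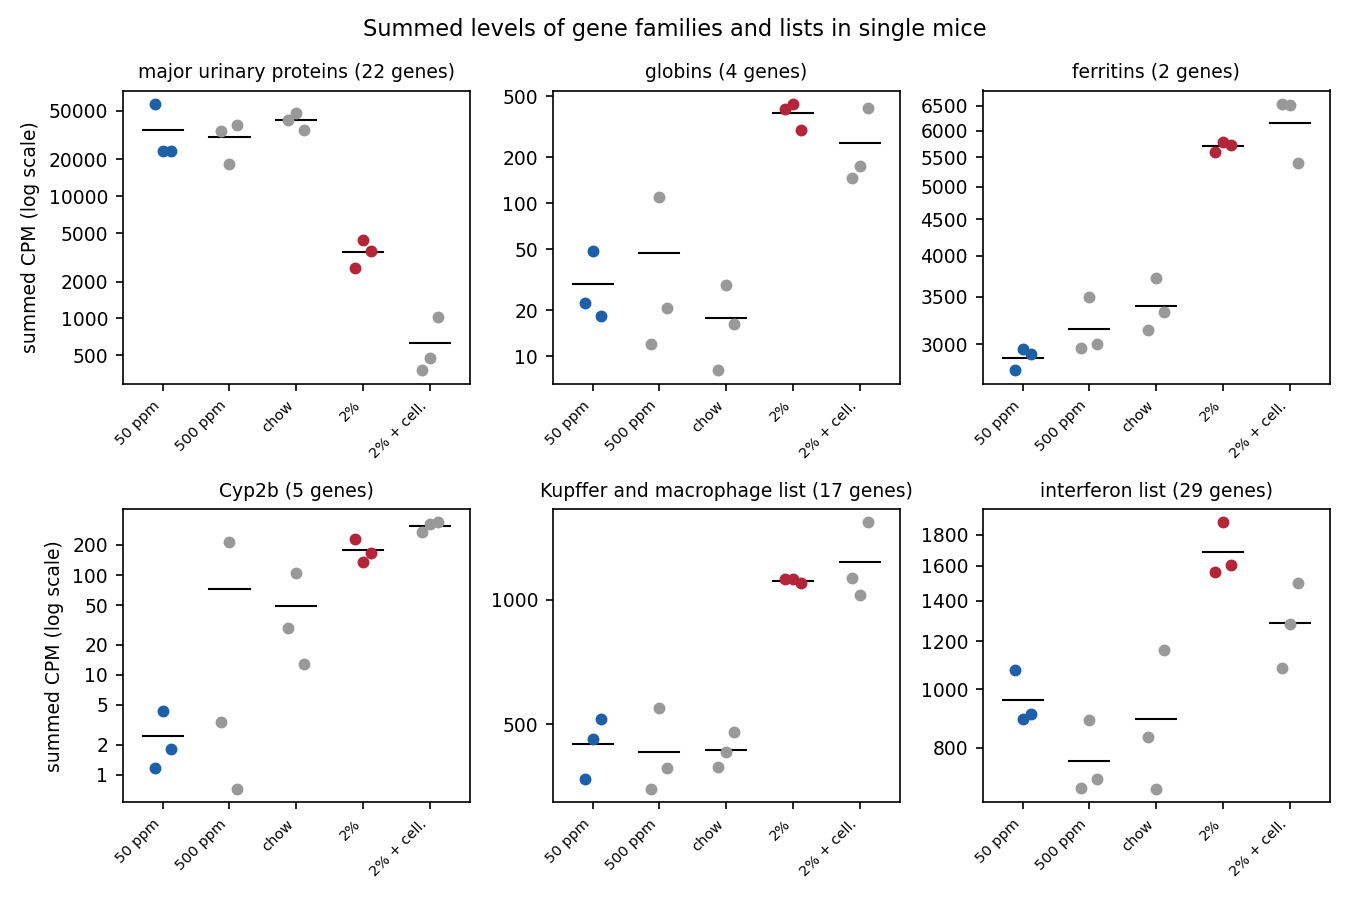
Each point is the summed level of a gene family or list in 1 mouse (CPM, log axis), by diet, with a bar at the mean of 3 mice. The 2% mice (red) and 50 ppm mice (blue) do not overlap in any of the 6 panels, with ferritins at 5600 to 5780 CPM against 2755 to 2954 CPM.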

How the data were processed

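Liver RNA of 15 C57BL/6J mice on 5 diets was analysed, of which 6 mice make up the comparison. Per gene and mouse, the authors deposited estimated counts (expected counts, 25.1% to 30.4% of entries not whole) and TPM (transcript abundances scaled for length, each library summing to 1000000). The submitters' processing notes name kallisto 0.46 and mm10 without their role, and the strand setting is not given in the sources used here. Gene names and coordinates came from GENCODE M21 (GRCm38), which matched 34924 of 35274 identifiers.

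Estimated counts were rounded to whole numbers, because the planned test assumed whole counts. They were tested with edgeR 4.0.16 (quasi-likelihood, TMM factors, filterByExpr, two-sided) on all 15 mice together, with no covariate, so that the 5 diets share 1 estimate of the spread. CPM values use the TMM factors. Calls are at a Benjamini-Hochberg adjusted p below 0.05 over the 13560 genes tested. An exact permutation test of 3 mice against 3 cannot go below p = 0.1. The 15 libraries held 10420708 to 20357169 counts, and a count of 0 is set at a floor of 3 counts, which covers counting error only. The labels give each mouse its own animal number.

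The members and the 55 gene lists were chosen with earlier results of these data known, and 1 list (hypoxia) and the interferon motif were added after seeing them. Named genes were the 15 largest rises and falls called without overlap at a mean of at least 1 CPM, the 10 smallest adjusted p in each direction at a mean of at least 10 CPM, up to 4 called members of each list in each direction at 1 CPM or more, and all members of the hepcidin and iron storage lists. Predicted genes were passed over, some results on single genes are not reported here, and other named genes were picked after their values were seen.

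Alternatives were RLE factors, other filters, the 6 mice alone, the fit without the second 500 ppm mouse, DESeq2 1.42.0, limma 3.58.1 on log2(TPM + 1) or log2(TPM + 0.1), and leaving out each mouse. Promoter windows of 300 bases came from RefSeq (GRCm38.p6). R 4.3.3, Python 3.11.15, numpy 2.4.6, pandas 2.3.3, scipy 1.17.1 and matplotlib 3.10.9 were used, and the tests were tested on simulated data.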

Additional observations from a re-analysis of the deposited data

How the results depend on the processing

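Of the 222 named genes that were called, none changed direction under any alternative. The calls no longer made numbered 4 with RLE factors, 21 with no filter and 2 without the second 500 ppm mouse. They numbered 24 with the 6 mice alone and 4 with DESeq2, each out of the 220 genes with a value there. They numbered 63 and 62 with limma on log2(TPM + 1) and log2(TPM + 0.1), and 42 to 90 when 1 mouse was left out. The 2127 calls became 2139 with RLE factors, 1781 with no filter, 1877 with at least 10 counts in every library, 2033 with the 6 mice alone, 2333 without the second 500 ppm mouse, 2242 with DESeq2, and 1208 and 1161 with limma on log2(TPM + 1) and log2(TPM + 0.1). On those TPM scales 804 and 763 genes were higher and 404 and 398 lower. When 1 mouse was left out, the calls ranged from 1003 (without 50 ppm mouse 1) to 1640, the genes higher from 563 to 880, those lower from 440 to 760, and the different list members called, 293 in all, from 162 (without 50 ppm mouse 1) to 238, with 191 without 2% mouse 3. Where these counts differ, the cause was not tested. Over all lists and alternatives, 590 counts stayed within 1.5 times and 194 did not. The summed level of the interferon list differed by 0.81 on the log2 scale in CPM and by 0.98 in TPM. No paired analysis was possible because the mice carry animal numbers and the groups share no replicate number. With 3 mice a group, a gene without a call is not shown to be unchanged.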

Other observations

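A few gene groups that the comparisons above leave out also held calls. Over all genes tested, 15.7% were called. Of 18 genes of the circadian clock 2 (11.1%) were called, both lower. The repressor Nr1d1 was at 38.8, 42.5 and 53.4 CPM on 2% iron and 128, 83.7 and 106 CPM on 50 ppm (log2 change -1.24), and the output factor Hlf fell by 0.64. Hlf was not called without 2% mouse 2 or 3 or 50 ppm mouse 1 or 3, or with limma on either TPM scale (adjusted p up to 0.132). The call for Nr1d1 ended whichever of the 6 mice was left out, and with limma on either TPM scale (adjusted p up to 0.153). For the clock genes, the 2 calls became 0 without 2% mouse 2 or 3 or 50 ppm mouse 1 or 3 or with limma on either TPM scale, 1 without 2% mouse 1 or 50 ppm mouse 2, and 4 with the 6 mice alone. The core genes Clock and Arntl were at -0.34 and 0.31 and were not called. The labels used here give no hour of collection. Of 22 genes of the urea cycle and amino acid breakdown 3 (13.6%) were called, all lower. Among them Hpd, the dioxygenase of tyrosine breakdown, was at 873, 922 and 764 against 1430.0, 1521 and 1319 CPM (log2 change -0.74, SE 0.18, adjusted p 0.0141), and Otc, which makes citrulline, fell by 0.41, while Cps1, the entry enzyme of the urea cycle, was at 0.05 with no call. Hpd was not called without 2% mouse 3 (adjusted p up to 0.0602). Otc was not called without 2% mouse 1 or 3 or 50 ppm mouse 1, 2 or 3, or with no filter on low counts, the 6 mice alone or limma on either TPM scale (adjusted p up to 0.162). For this list, the 3 calls became 0 without 2% mouse 3, and 1 without 2% mouse 1 or 50 ppm mouse 1 or with limma on either TPM scale.

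Among 8 sulfotransferases tested 2 (25%, against 15.7% of all genes tested) were called, both lower. Sult1b1 was at 10.1, 12.1 and 11.4 CPM on 2% iron and 22.6, 22.1 and 17.1 CPM on 50 ppm (log2 change -0.88, SE 0.13, adjusted p 0.00101), with the 3 mice on 2% iron below the 3 on 50 ppm. For the sulfotransferases, the 2 calls became 1 higher and 2 lower without 50 ppm mouse 3 or with DESeq2 or with the 6 mice alone or without the second 500 ppm mouse. Of 11 markers of fetal liver and liver tumours Gpc1, a cell surface glypican, was the single call (9.09%). Gpc1 was at 2.9003, 2.22 and 1.45 CPM on 2% iron and 16.7, 13.6 and 15.7 CPM on 50 ppm (log2 change -2.798, SE 0.51, adjusted p 0.00317). Alpha-fetoprotein (Afp) was at 0.829, 1.96 and 4.35 against 2.33, 1.45 and 1.49 CPM, with overlap between the groups. Of 18 genes of the integrated stress response, 2 (11.1%) were called, both higher. Mthfd2, a mitochondrial folate enzyme, was at 1.16, 2.84 and 1.71 against 0.291, 0.193 and 0.994 CPM (log2 change 1.88, or 2.92 without 50 ppm mouse 3), and Sesn2 rose by 0.51. The factor Atf4 was at 0.13 and was not called. Mthfd2 was not called without 2% mouse 2 or 50 ppm mouse 1 or 2, or with the 6 mice alone or limma on either TPM scale (adjusted p up to 0.464). The call for Sesn2 ended whichever of the 6 mice was left out, and with RLE factors, no filter on low counts or limma on either TPM scale (adjusted p up to 0.163). For the stress response, the 2 calls became 0 without 2% mouse 2 or 50 ppm mouse 1 or 2 or with limma on either TPM scale, 1 without 2% mouse 1 or 3 or 50 ppm mouse 3 or with RLE factors or with no filter on low counts or with at least 10 counts in every library (fewer members tested), and 4 with the 6 mice alone. Of 17 genes of glucose metabolism and insulin response, Pck1, described with the periportal genes, was the single call (5.88%). For the glucose list, the 1 call became 0 without 2% mouse 1 or 3 or 50 ppm mouse 2 or 3 or with limma on either TPM scale, and 1 higher and 0 lower with the 6 mice alone. The antitrypsin copies Serpina1a and Serpina1c fell by 0.57 and 0.702, while Serpina3n and Serpina3m rose by 1.05 and 0.95. Reads of these copies can be shared. Serpina1a was not called without 2% mouse 3 or 50 ppm mouse 1, or with limma on either TPM scale (adjusted p up to 0.0785). Serpina3m was not called without 2% mouse 1 or 2 or 50 ppm mouse 1 or 3 (adjusted p up to 0.124). Serpina1c was not called without 2% mouse 1 or 3 or 50 ppm mouse 1 or 2, or with limma on either TPM scale (adjusted p up to 0.101). Serpina3n was not called without 2% mouse 1 or 2 or 50 ppm mouse 1, 2 or 3, or with limma on either TPM scale (adjusted p up to 0.174). For the 17 serpin A genes tested, the 7 calls became 1 higher and 1 lower without 50 ppm mouse 1, 1 higher and 2 lower without 2% mouse 1, 2 higher and 1 lower with limma on either TPM scale, 1 higher and 3 lower without 2% mouse 2, 2 higher and 2 lower without 50 ppm mouse 2, 3 higher and 1 lower without 2% mouse 3, and 1 higher and 4 lower without 50 ppm mouse 3.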
